A study of Mus musculus with 2 samples.

Results

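The nuclear-encoded subunits of the respiratory chain and of ATP synthase were followed in mouse intestine labelled as lacking GDE5 (gene Gpcpd1), an enzyme of choline metabolism, and in wild-type intestine. Members were all genes whose array name marks them as a subunit of complex I (Nduf genes), II (Sdh), III (Uqcr), IV (Cox4 to Cox8) or V (Atp5), without pseudogenes. The rule uses names and no measured value, though it was set with earlier results of these data known. The rule found 85 genes with 124 probes, of 26582 gene symbols with 41174 probes on the array. Of these, 37 genes belong to complex I, 4 to complex II, 8 to complex III, 19 to complex IV and 17 to complex V. Ndufa4 was counted with complex IV, where its protein resides. Cox7a2l is an assembly factor for supercomplexes that shares the name of the subunits and was kept under its own name.

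RNA labelled Gde5 gutKO came from the intestine of males with a gut-specific deficiency of Gpcpd1, and RNA labelled WT from wild-type males. All mice were 20 weeks old and on normal diet, and the strain is C57BL/6. The promoter that drives the deletion, the part of the gene removed and the bowel segment are not given in the sources used here. Both RNAs were hybridised together on 2 dual-colour arrays with the dyes exchanged, with Cy3 on the Gde5 gutKO sample in replicate 1 and Cy5 on it in replicate 2. In all, 5 mice are mentioned in the description of the series. Neither pooling of animals nor separate RNA extracts for the arrays is stated, so that any p-value rests on how far 2 hybridisations differ, a spread that could be wholly technical. In whole tissue, fewer cells of a type and less RNA per cell cannot be told apart.

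The respiratory chain sits in the inner mitochondrial membrane. Complex I takes electrons from NADH and complex II from succinate, ubiquinone carries them to complex III, cytochrome c carries them on to complex IV, and the proton gradient built on the way drives ATP synthase, complex V. Each complex except complex II joins nuclear-encoded subunits to subunits made from mitochondrial DNA. In the small intestine this machinery fuels absorption by the enterocytes, the lining cells of the villi.

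Gpcpd1 itself checks the labels poorly: 3 of its 4 probes had a mean log2 ratio of Gde5 gutKO over WT above 0 (0.47, 0.62 and 0.68) and 1 had -0.13. A probe outside the deleted part need not change, and the direction of every ratio here rests on the labels. All 12 enterocyte markers were well above background in both genotypes. So were 4 of 5 spermatid genes on the array, and this level therefore does not check the tissue label. Among them Prm1 had 118800 and 143300 in RNA labelled Gde5 gutKO, against 155800 and 140300 in RNA labelled WT. Of the 85 members, 82 were well above background in both genotypes on both arrays and were tested among 18987 genes. The other 3, the complex IV isoforms Cox4i2, Cox7b2 and Cox8c, were not well above background in either genotype on either array. The members tested were bright, with a median normalised intensity of 18300 against 448 for all genes tested, and no spot was saturated. Spots well above background made up 75.3% and 70.3% of gene spots for RNA labelled Gde5 gutKO in replicates 1 and 2, against 69.3% and 76.1% for RNA labelled WT.

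Several members are read by probes that overlap on the transcript but lie apart on the array. They matter here because the same message was measured at different places on the glass. In the following sequences of 60 bases each, taken from the array's design file, capitals mark the run that the probes of a pair share. The Atp5h probes lie at chr11:115277094-115277153 and chr11:115277134-115277193 (mm9, minus strand), in array rows 345 and 57.
Atp5h row 345: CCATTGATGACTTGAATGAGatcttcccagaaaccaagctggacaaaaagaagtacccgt
Atp5h row 57: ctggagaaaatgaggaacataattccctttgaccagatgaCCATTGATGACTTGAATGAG
The Ndufa12 probes lie at chr10:93662740-93666054 and chr10:93662720-93666034 (mm9, plus strand), in rows 505 and 235. Each spans 3315 bases of genome with 60 bases of probe, so that they cross a splice junction.
Ndufa12 row 505: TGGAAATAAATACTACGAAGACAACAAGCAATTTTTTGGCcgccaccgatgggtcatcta
Ndufa12 row 235: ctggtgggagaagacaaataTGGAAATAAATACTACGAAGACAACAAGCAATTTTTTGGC
The Ndufs6 probes lie at chr13:73457796-73457855 and chr13:73457790-73457849 (mm9, minus strand), in rows 237 and 469.
Ndufs6 row 237: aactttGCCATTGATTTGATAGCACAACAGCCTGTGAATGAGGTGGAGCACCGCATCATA
Ndufs6 row 469: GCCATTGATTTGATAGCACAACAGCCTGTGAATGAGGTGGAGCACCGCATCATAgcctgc

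The Atp5h probes, for the d subunit of the ATP synthase stalk, share 20 bases and gave different ratios. Its probe in row 345 had log2 ratios of Gde5 gutKO over WT of -0.11 on the array of replicate 1 and 0.08 on that of replicate 2, whereas the probe in row 57 had 0.44 and -0.33. For Ndufa12, an accessory subunit of complex I, the probes share 40 bases. The probe in row 505 had 0.49 and -0.06, and the probe in row 235 had -0.25 and 0.15, so that both arrays turned sign between them. The Ndufs6 probes, for a further accessory subunit, share 54 bases and lie in rows 237 and 469. They were close, at -0.05 and 0.23 for the one and 0.05 and 0.09 for the other. Cox7a2, the ubiquitous form of complex IV subunit VIIa, is read by probes that share 48 bases at chr9:79603227-79603286 and chr9:79603215-79603274 (mm9, minus strand). The probe in row 413 had 0.02 and 0.10, and the probe in row 145 had 0.78 and 0.28, so that both were above 0 on both arrays at very different sizes.

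Position on the array accompanied these differences. Among 2934 bright probes of other genes, each printed once and with a normalised intensity of at least 4096, those in rows 1 to 112 had a median log2 ratio of Gde5 gutKO over WT of 0.48 on replicate 1, against -0.47 on replicate 2. Those in rows 155 to 490 had medians of -0.06 and 0.03. Between these blocks the arrays parted: probes in rows 113 to 154 had medians of 0.54 and 0.05, and probes in rows 491 to 518 had 0.42 and -0.13. The last rows, 519 to 532, had 0.55 and -0.48. In the log ratios that the scanner software had already processed, the medians were 0.27 and 0.10 in rows 113 to 154, and -0.05 and 0.01 in rows 155 to 490. In the outer rows the Cy3 channel was thus the brighter one on both arrays, and the step lay at different rows on the 2 arrays.

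The subunit genes followed the same steps. The 18 members with their probe in rows 1 to 112 had median log2 ratios of 0.52 and -0.43, and 17 of them had opposite signs on the arrays. The 10 members in rows 113 to 154 had medians of 0.55 and 0.17, and 8 of them were above 0 on both arrays, where 53.4% of the other bright probes were too. The 46 members in rows 155 to 490 had medians of -0.10 and 0.10. Of these, 8 were above 0 and 4 below 0 on both arrays, and 34 had opposite signs. Among the other bright probes there, 11.2% were above 0 and 20.8% below 0 on both arrays, so that the members' signs leaned the other way. The 7 members in rows 491 to 518 had 0.53 and 0.07, with 3 above 0 on both arrays against 25.8% of the other bright probes there. Row limits were set after these values had been seen, and the steps do not run straight across the columns of the array.

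**Figure D1:**
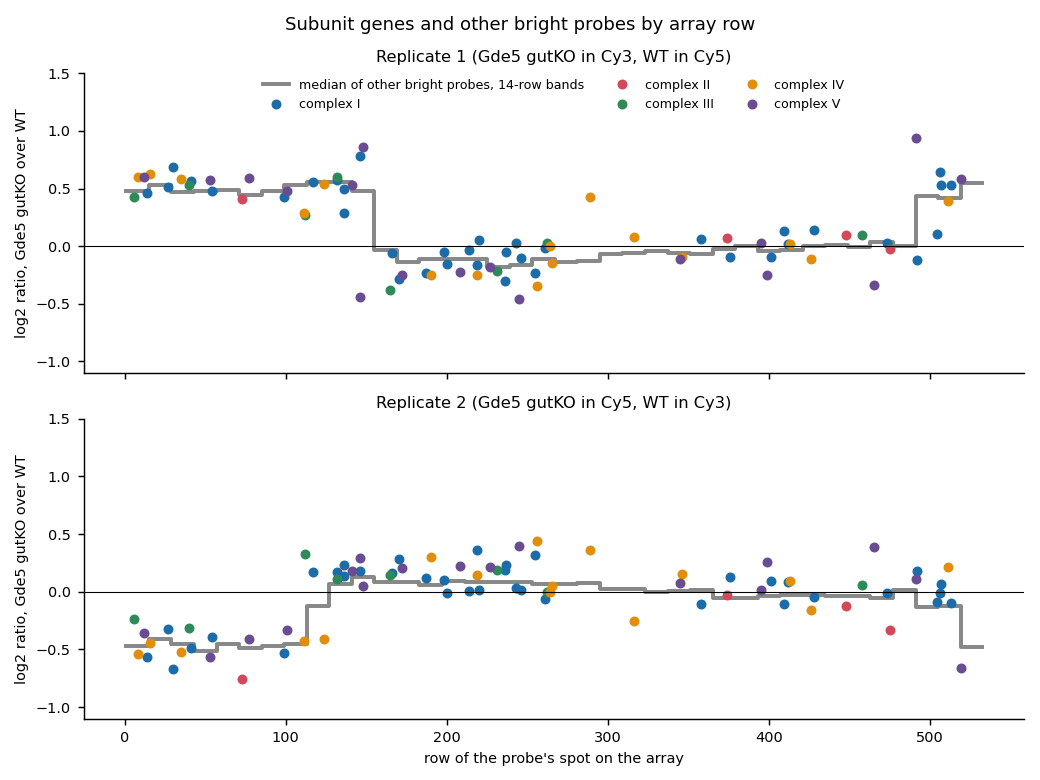
Log2 ratio of Gde5 gutKO over WT on each array (y axis) against the row of the probe's spot (x axis, 1 to 532) for the 82 subunit genes, coloured by complex, with the median of the other bright probes in bands of 14 rows as the grey line. The line stands near 0.5 in replicate 1 up to row 154 and near -0.5 in replicate 2 up to row 112, and most members lie close to it.

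Because of this pattern each ratio below is given under the planned normalization, 1 loess curve per array, and where it matters under 2 others that were chosen after the pattern had been seen. In the first of these a loess curve was fitted within each band of 14 rows. In the other, the median ratio of the 25 nearest gene spots of the same intensity class (below or at least 1024) was taken off each spot after the planned loess. Probes printed 10 times each, scattered over the array, show what these do: over the 73 of them with a normalised intensity of at least 1024, the median SD of the log2 ratio across prints was 0.28 in replicate 1 and 0.23 in replicate 2 under the planned normalization. It was 0.07 and 0.08 with row bands, and 0.05 and 0.05 with local medians. Across all 18987 genes, the Pearson correlation between the arrays' ratios was -0.38 under the planned normalization, 0.01 with row bands and -0.18 with local medians, as a description over genes that share both hybridisations. Over the 82 members it was -0.57, -0.35 and -0.56 in the same order.

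No subunit gene passed limma's test between genotypes with Benjamini-Hochberg adjustment over all genes, under any of the 3 normalizations. Under the planned normalization limma called 0 of 18987 genes (0%), and 236 genes (1.24%) with 1 member among them had an unadjusted p under 0.05. With row bands limma called 66 genes (0.348%) and no member, and 1012 genes (5.33%) with 2 members among them had an unadjusted p under 0.05. With local medians it called 8 genes (0.0421%) and no member, and 509 genes (2.68%) with 2 members among them had an unadjusted p under 0.05.

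Taken over all 82 members, the median log2 ratio was 0.03, with 0.07 in replicate 1 and 0.05 in replicate 2, against -0.01 for all genes tested. Mean ratios of single members ran between -0.18 and 0.52. Of the members, 20 (24.4%) were above 0 on both arrays, where 16.9% of all genes were, and 4 (4.88%) were below 0 on both, where 18.1% of all genes were. The other 58 (70.7%) had opposite signs on the arrays, as 64.9% of all genes did. No member was at least 1.5-fold apart in the same direction on both arrays, a size that 0.158% of all genes reached upwards and 0.0579% downwards. With a normexp offset of 0 in place of 50, 1 member reached it, Cox6a2. At 1.2-fold there were 2 members higher in RNA labelled Gde5 gutKO on both arrays, Cox6a2 and Uqcrfs1, against 1.46% of all genes, and none lower, against 0.411%.

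Of the 20 members above 0 on both arrays, 11 had their probe in rows 113 to 154 or 491 to 518, where 17 of the 82 members lie. With row bands 22 members (26.8%) were above 0 and 8 (9.76%) below 0 on both arrays, against 20.8% and 20.8% of all genes. With local medians these counts were 18 (22.0%) and 4 (4.88%), against 19.1% and 18.6% of all genes, and the other 60 members had opposite signs, against 62.2%. The members' median SD between the arrays was 0.28 under the planned normalization, 0.13 with row bands and 0.12 with local medians. The members' median ratio stayed small throughout, at 0.02 with row bands and 0.03 with local medians.

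**Figure D2:**
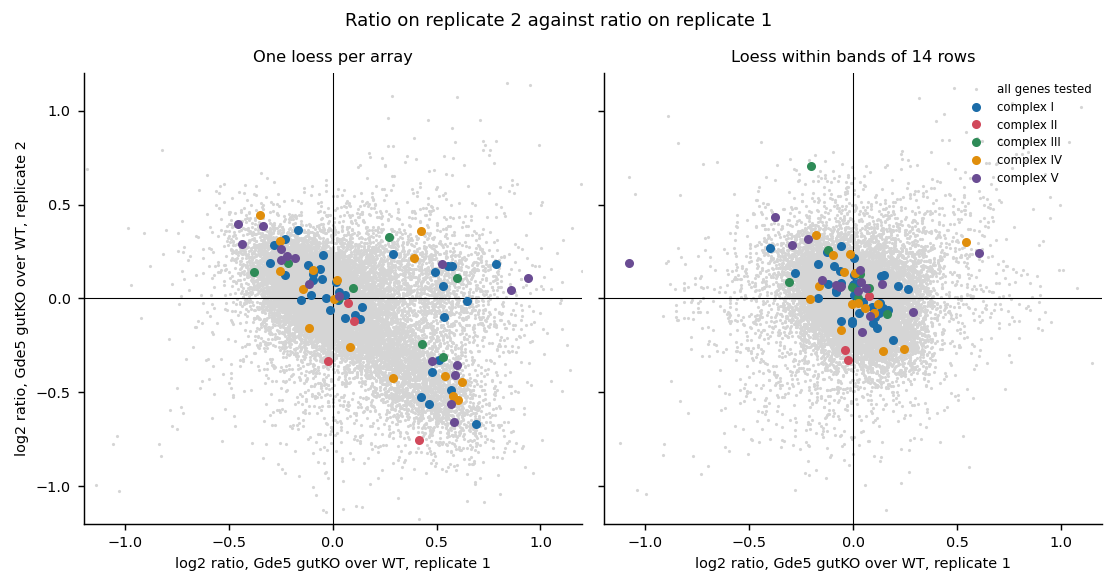
Log2 ratio of Gde5 gutKO over WT on replicate 2 (y axis) against replicate 1 (x axis), with all genes tested in grey and subunit genes coloured by complex, under 1 loess curve per array (left) and loess within row bands (right). Axes stop at 1.2 on either side, beyond which 18 genes lie on the left and 14 on the right, and the arm of members towards the lower right is present on the left and absent on the right.

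Which members kept their sign was counted over the 3 normalizations. Ndufa3, Ndufab1, Ndufs3, Uqcr10, Cox6a2, Cox7a2 and Atp5j were above 0 on both arrays in all 3, which makes 7 members. Cox6b2 was below 0 on both arrays in all 3, the 1 member to be so. These signs are those of the brightest probe of each gene, and the other tested probes of Ndufab1 did not share its sign on both arrays. The size of the mean was smaller with row bands for most of them.

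**Figure D3:**
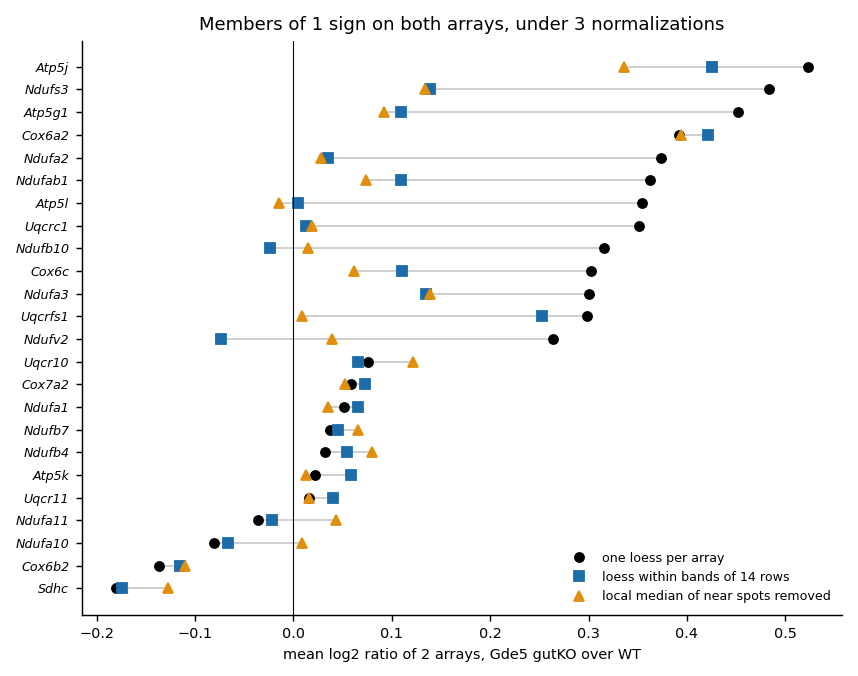
Mean log2 ratio of Gde5 gutKO over WT over 2 arrays (x axis) for the 24 members with the same sign on both arrays under 1 loess curve per array (black circles), and the same genes with loess within row bands (blue squares) and with local medians removed (orange triangles). Most of the black circles above 0.25 have their blue and orange marks below 0.15, with Atp5j and Cox6a2 as exceptions for both marks and Uqcrfs1 for the blue one.

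Complex I, NADH dehydrogenase, is the largest of the complexes and had 37 members tested. Of these, 9 were above 0 on both arrays, 2 below 0 on both and 26 of opposite signs, with a median log2 ratio of 0.03 (0.06 in replicate 1 and 0.03 in replicate 2). With row bands 10 were above 0 and 3 below 0 on both arrays, with a median of 0.02. Among the 7 core subunits, which carry the redox centres, 2 were above 0 on both arrays and 5 had opposite signs. Among the 30 accessory subunits, 7 were above 0, 2 below 0 and 21 of opposite signs.

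Ndufs3, a core subunit of the arm that faces the matrix, had normalised intensities of 15090 and 16580 in RNA labelled Gde5 gutKO in replicates 1 and 2, against 8756 and 14610 in RNA labelled WT. The Gde5 gutKO values lay above the WT values, by a wide margin in replicate 1 and a narrow one in replicate 2. Its log2 ratio was 0.48 ± 0.43 (SD, n = 2), with limma's adjusted p at 1. Its probe lies in row 146, and with row bands the ratio was 0.14 ± 0.11 and with local medians 0.13 ± 0.11.

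Ndufv2, the core subunit next to the NADH site, had intensities of 9895 and 11270 in RNA labelled Gde5 gutKO, against 8082 and 9578 in RNA labelled WT. The log2 ratios of 0.29 and 0.24 lay close together, with a mean of 0.26 ± 0.04. With its probe in row 136, the mean turned to -0.07 with row bands (-0.28 in replicate 1 and 0.13 in replicate 2) and stood at 0.04 with local medians. The closeness of its arrays therefore held under the planned normalization and not under the other 2. A further Ndufv2 probe, in row 280, had -0.058 and 0.268, and 0.033 and 0.215 with row bands. Ndufab1, the mitochondrial acyl carrier protein, had log2 ratios of 0.55 and 0.17 by its brightest probe in row 117 and 0.11 ± 0.15 with row bands. Its other tested probes, in rows 49, 17 and 295, each had opposite signs on the arrays under the planned normalization. Their means were -0.117, 0.011 and 0.029, and -0.105, -0.007 and 0.064 with row bands. Ndufa2, an accessory subunit, had 0.58 and 0.17 in row 132 and 0.04 ± 0.05 with row bands.

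Members of opposite signs on the arrays had ratios as large. Ndufv1, which binds NADH and the flavin, had intensities of 13940 and 8380 in RNA labelled Gde5 gutKO, against 8648 and 13340 in RNA labelled WT. The RNA labelled Gde5 gutKO was brighter where it carried Cy3 and dimmer where it carried Cy5, so that the groups overlapped and the mean log2 ratio was 0.01 ± 0.96. Its probe lies in row 30, and with row bands the ratios were 0.19 and -0.22. Ndufb9, an accessory subunit of the membrane arm, had 0.57 and -0.49 in row 41, and 0.05 and -0.02 with row bands. Below 0 on both arrays were Ndufa10, at -0.15 and -0.01, and Ndufa11, at -0.01 and -0.06, both accessory subunits.

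Ndufa11 is the member whose overlapping probes stayed apart. Its probes share 50 bases and lie at chr17:56857241-56857300 and chr17:56857231-56857290 (mm9, plus strand). The probe in row 261 had 1344 and 1194 in RNA labelled Gde5 gutKO, against 1355 and 1246 in RNA labelled WT. The probe in row 480 had 787.6 and 435.0 in RNA labelled Gde5 gutKO, against 754.6 and 750.2 in RNA labelled WT. The low value of 435.0 in replicate 2 sets that probe apart, with log2 ratios of 0.06 in replicate 1 and -0.79 in replicate 2. With row bands they were 0.11 and -0.80, so that the gap in replicate 2 remained.

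Complex II, succinate dehydrogenase, also a citric acid cycle enzyme, had a median log2 ratio of -0.09 (0.09 in replicate 1 and -0.23 in replicate 2) over 4 members. None was above 0 on both arrays, 1 was below 0 and 3 had opposite signs, and with row bands these counts were 1, 2 and 1 with a median of -0.07. Sdhc, a membrane anchor, had intensities of 4955 and 4134 in RNA labelled Gde5 gutKO, against 5040 and 5219 in RNA labelled WT. It lay lower in RNA labelled Gde5 gutKO on both arrays, with log2 ratios of -0.02 and -0.34 and a mean of -0.18 ± 0.22 (adjusted p = 1, limma). Its probe lies in row 475, away from the steps, and the mean was -0.17 with row bands. With local medians it was -0.13, with replicate 1 above 0 at 0.06.

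Sdhb, the iron-sulphur subunit, had 10990 and 6547 in RNA labelled Gde5 gutKO, against 8256 and 11060 in RNA labelled WT. The groups overlapped, with ratios of 0.41 and -0.76 in row 73. With row bands both ratios were below 0, at -0.04 and -0.28. Sdha, the flavoprotein, had 0.10 and -0.12, and Sdhd, the other membrane anchor, had 0.07 and -0.03. Further Sdha probes in rows 283 and 395 had means of -0.13 and -0.12, and -0.09 and -0.07 with row bands.

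Complex III, cytochrome bc1, had a median log2 ratio of 0.09 (0.18 in replicate 1 and 0.08 in replicate 2), with 4 of 8 members above 0 on both arrays and 4 of opposite signs. With row bands the median was 0.05, with 3 above 0 and 5 of opposite signs, and with local medians it was 0.02. Uqcrfs1, the Rieske iron-sulphur protein, had intensities of 19370 and 23690 in RNA labelled Gde5 gutKO, against 16070 and 18910 in RNA labelled WT. The Gde5 gutKO values lay above both WT values, with 19370 in replicate 1 close to the 18910 of RNA labelled WT in replicate 2. The mean log2 ratio was 0.30 ± 0.04 (adjusted p = 1, limma).

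Uqcrfs1 lies in row 112, at the step of replicate 2. With row bands its ratios were -0.20 and 0.71, and with local medians -0.19 and 0.21, with a mean of 0.01. Uqcrc1, a core protein, had 0.60 and 0.11 by its probe in row 132, and 0.02 and 0.00 with row bands. A further Uqcrc1 probe in row 236 had -0.09 and -0.02. Uqcr10, a small accessory subunit in row 458, had 0.10 and 0.06, with means of 0.08 under the planned normalization and 0.07 with row bands.

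Uqcrb and Uqcrh, accessory subunits, went opposite ways on the arrays: Uqcrb had 0.53 and -0.32 in row 40, and Uqcrh had -0.38 and 0.14 in row 165. With row bands Uqcrb had 0.03 and 0.13.

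Complex IV, cytochrome c oxidase, had 16 of its 19 members tested, of which 3 were above 0 on both arrays, 1 below 0 and 12 of opposite signs. Their median was 0.03, with 0.05 on replicate 1 and 0.03 on replicate 2. With row bands 2 were above 0 and 3 below 0 on both arrays, with a median of 0.01. Several subunits of this complex exist as a widely expressed form and a form of heart and skeletal muscle or of testis.

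Cox6a2, the heart and skeletal muscle form of subunit VIa, had the lowest unadjusted p of the members. Its normalised intensity was 150.5 and 151.0 in RNA labelled Gde5 gutKO, against 112.1 and 117.7 in RNA labelled WT. The Gde5 gutKO values lay above both WT values without overlap. The log2 ratio was 0.39 ± 0.05, a 1.31-fold difference, with limma's unadjusted p at 0.0453 and adjusted p at 1. The size of this dim probe's mean depended on the background step: it was 0.64 with a normexp offset of 0, 0.72 in the scanner software's processed log ratio and 0.25 with outlier spots kept. Its probe is a dim one in row 289, away from the steps, and the mean was 0.42 ± 0.17 with row bands (adjusted p = 0.262) and 0.39 ± 0.12 with local medians (adjusted p = 1).

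Cox6a1, the widely expressed form, had no such pattern. It had 120100 and 153600 in RNA labelled Gde5 gutKO, against 152900 and 112900 in RNA labelled WT. The RNA that carried Cy5 was the brighter on each array, and the mean log2 ratio was 0.05 ± 0.56. Cox6a1 was read at chr5:115795726-115795785 and Cox6a2 at chr7:135349160-135349219 (mm9, minus strand), by probes whose longest shared run is 4 bases.

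Skeletal muscle genes stand beside Cox6a2 here. Several of the 19 muscle genes on the list were chosen with earlier results of these data known, which partly sets the counts below. Of the 19, 12 were well above background in both genotypes on both arrays. Of these 7 were above 0 on both arrays, 2 below 0 and 3 of opposite signs. Of all genes past that filter, 16.4% were above 0 and 18% below 0 on both arrays. A further 6, all above 0 on both arrays, passed the filter only through RNA labelled Gde5 gutKO, where they are the higher, so that their sign was favoured by the filter. The last, Casq1, was not above background in either genotype. Over all 19, the summed normalised intensity was 5685 and 5273 in RNA labelled Gde5 gutKO, against 3433 and 3394 in RNA labelled WT. The myosins Myh4 (2.02 and 2.35) and Myh8 (2.11 and 2.09) had the highest ratios. Ckm (-0.01 and -0.13) and Acta1 (-0.13 and -0.01), creatine kinase and actin of skeletal muscle, were below 0. With row bands 9 of the 12 were above 0 on both arrays and none below, against 20.8% and 20.8% of all genes. Limma then called 5 of the 12, all higher (Myh4, Myh8, Tnnc2, Tnni2 and Tnnt3), against 0.348% of all genes. The part of muscle tissue in the Cox6a2 value was not tested.

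The other muscle forms did not go with Cox6a2. Cox7a1 had 13940 and 11160 in RNA labelled Gde5 gutKO, against 13170 and 13340 in RNA labelled WT. It was higher in replicate 1 and lower in replicate 2, with a mean log2 ratio of -0.09 ± 0.24. Cox8b, a dim probe, had 222.2 and 161.0 in RNA labelled Gde5 gutKO, against 152.9 and 214.2 in RNA labelled WT, so that the Cy3-labelled RNA was the brighter on each array.

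**Figure D4:**
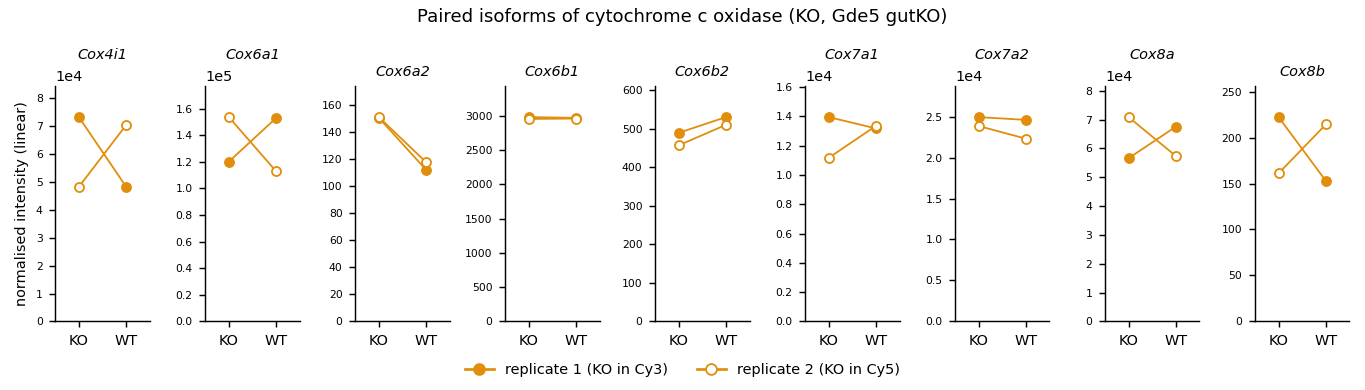
Normalised intensity (y axis, linear, from 0, a scale of its own for each gene) in RNA labelled Gde5 gutKO (left) and RNA labelled WT (right) for paired isoforms of complex IV, with filled circles for replicate 1 and open circles for replicate 2 and lines joining values of 1 array. Lines cross for Cox4i1, Cox6a1, Cox7a1, Cox8a and Cox8b, while both lines of Cox6a2 slope down, with 150.5 and 151.0 on the left and 112.1 and 117.7 on the right.

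Cox6b2, the testis form of subunit VIb, had 489.5 and 457.0 in RNA labelled Gde5 gutKO, against 530.3 and 510.3 in RNA labelled WT. The Gde5 gutKO values lay below both WT values, with a log2 ratio of -0.14 ± 0.03 (adjusted p = 1, limma) and -0.11 with local medians. Cox6b1, the widely expressed form, had 2979 and 2952 in RNA labelled Gde5 gutKO, against 2968 and 2958 in RNA labelled WT. Of 4 spermatid genes tested, set beside it as testis markers, 1 was above 0 on both arrays, 1 below 0 and 2 of opposite signs, and all 4 had opposite signs with row bands.

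Cox4i1, the regulatory subunit IV, had 73090 and 48170 in RNA labelled Gde5 gutKO, against 48200 and 70230 in RNA labelled WT. The intensities changed places with the dyes, for a mean log2 ratio of 0.03 ± 0.81. In its row 8 the row bands gave 0.02 and -0.02. Cox5b had 0.58 and -0.52 in row 35, and 0.06 and -0.05 with row bands. Cox6c had 0.39 and 0.21 in row 511, and -0.02 and 0.24 with row bands. Cox8a had -0.25 and 0.31 in row 190, Cox7c 0.29 and -0.43 in row 111, and Cox7a2l 0.62 and -0.44 in row 16. With row bands Cox8a had -0.098 and 0.232, Cox7c -0.209 and -0.002, and Cox7a2l 0.12 and -0.03.

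Complex V, ATP synthase, makes ATP in its F1 head from the proton flow through its membrane part, Fo. Of 17 members tested, 4 were above 0 on both arrays, none below 0 on both and 13 of opposite signs, with a median log2 ratio of 0.02 (0.03 in replicate 1 and 0.11 in replicate 2). With row bands 6 were above 0 and 11 of opposite signs, and the median was 0.03. All 5 F1 subunits had opposite signs, with median ratios of -0.25 in replicate 1 and 0.26 in replicate 2. They did not move together: Atp5a1, Atp5b and Atp5c1 were brighter in Cy5 on both arrays. Brighter in Cy3 were Atp5d, at 0.57 and -0.56 in row 53, and Atp5e, at 0.60 and -0.36 in row 12. The 12 subunits of the stalks and Fo had 4 above 0 on both arrays and 8 of opposite signs.

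Atp5j, coupling factor 6 of the peripheral stalk, had the highest mean ratio of the members under the planned normalization and with row bands, though not with local medians, where Cox6a2 was higher. Its intensities were 37300 and 39340 in RNA labelled Gde5 gutKO, against 19460 and 36530 in RNA labelled WT. The WT value of replicate 1 was far below the other 3 values, and the log2 ratios were 0.94 and 0.11 with a mean of 0.52 ± 0.59. Its probe lies in row 491, at a step of replicate 1. The mean was 0.43 ± 0.26 with row bands (unadjusted p = 0.00448 and adjusted p = 0.292, limma) and 0.34 ± 0.28 with local medians (adjusted p = 1).

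Atp5g1, which encodes the proton-carrying c ring, had 14220 and 14500 in RNA labelled Gde5 gutKO, against 7846 and 14040 in RNA labelled WT. Again the WT value of replicate 1 was the low one, and with row bands the ratios were 0.29 and -0.07. Atp5g2, a further gene for the same ring, had 0.58 and -0.66 in row 519 and 0.04 and -0.18 with row bands, while its other probe, in row 191, had -0.06 and -0.04. The third, Atp5g3, had -0.34 and 0.39 in row 465 and -0.38 and 0.43 with row bands.

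Atp5b, the catalytic beta subunit, had 88870 and 105300 in RNA labelled Gde5 gutKO, against 121700 and 79960 in RNA labelled WT. The Cy5-labelled RNA was the brighter on both arrays, for a mean of -0.03 ± 0.60. Atp5c1, the central stalk subunit gamma, had -0.44 and 0.29 in row 146, among rows whose other bright probes had a median of 0.54 in replicate 1. With row bands it had the lowest mean of all members, at -0.44 (-1.08 and 0.19, adjusted p = 0.941), and with local medians the mean was 0.01. Atp5l, subunit g of Fo, had 0.53 and 0.18 in row 141, and -0.06 and 0.07 with row bands.

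**Figure D5:**
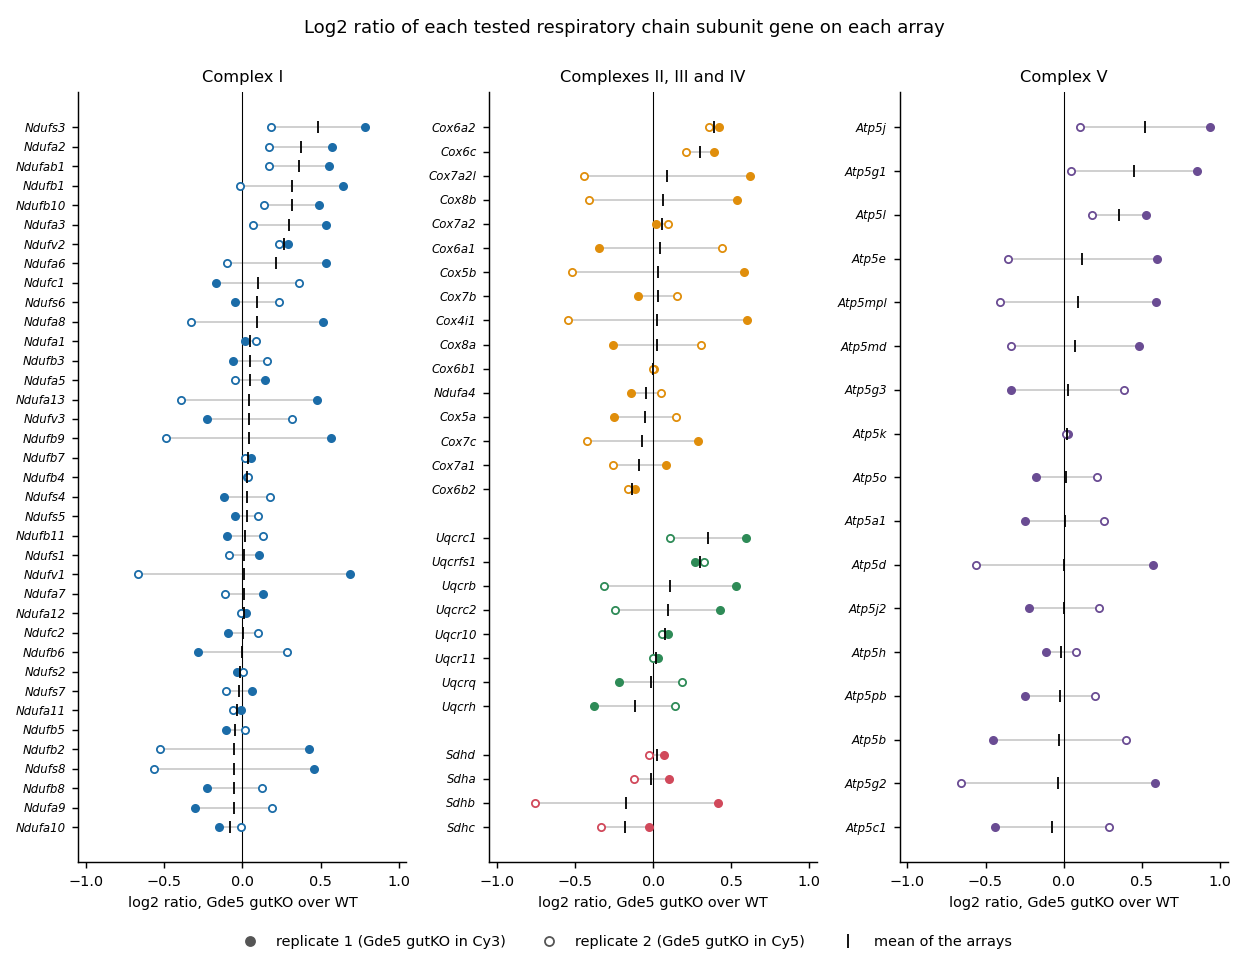
Log2 ratio of Gde5 gutKO over WT (x axis) of every tested subunit gene under 1 loess curve per array, with a filled circle for replicate 1, an open circle for replicate 2 and a bar for their mean, by complex and sorted by the mean within each. For 58 of the 82 genes the circles stand on either side of 0.

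Of the members, 26 have several tested probes. In 14 of them the probes' mean ratios lay on opposite sides of 0, with a median spread of 0.11 and a largest of 0.49 between the probes of a gene. With row bands the median spread was 0.09 and the largest 0.33, and 16 genes had probes on both sides of 0. Over 8 pairs of probes in 6 genes that share at least 20 bases, the ratios came closer with row bands in 6 pairs in replicate 1 and in 7 pairs in replicate 2. The mean over both arrays came closer in 5 of the 8, and the median gap in the mean was 0.07 under either normalization. For Cox7a2 the gap between its overlapping probes was 0.47 under the planned normalization and 0.11 with row bands. For Ndufc1, an accessory subunit of complex I, probes in rows 136 and 219 had means of 0.43 and 0.10, and 0.09 and 0.11 with row bands.

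Genes that build or serve the complexes were set beside them. Of all genes, 16.9% were above 0 and 18.1% below 0 on both arrays, and 20.8% and 20.8% with row bands. Among assembly factors, 2 of 13 for complex I were above 0 on both arrays and 1 below, for complex II 0 and 1 of 4, for complex III 0 and 0 of 6, for complex IV 2 and 1 of 18, and for complex V 0 and 0 of 5. With row bands the counts above and below were 3 and 2, 0 and 2, 1 and 0, 3 and 5, and 0 and 1. Sdhaf3, a complex II assembly factor, had -0.27 and -0.12, and a mean of -0.15 with row bands. The median ratios of these 5 lists lay between -0.05 and -0.01. Limma called none of their genes, nor any with row bands.

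Of 10 tested genes of electron carriers and ubiquinone synthesis, 2 were above 0 and 3 below 0 on both arrays, and none and 4 with row bands. Coq7, a hydroxylase of ubiquinone synthesis, had 0.30 in both replicates in row 514, and -0.07 and 0.41 with row bands. Coq9, its partner, had -0.20 and -0.14, and Coq6 had -0.07 and -0.15. Cytochrome c itself, Cycs, had 0.67 and -0.49 in row 37, and 0.15 and -0.03 with row bands.

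Of 14 genes of mitochondrial biogenesis and mitochondrial DNA expression, 1 was above 0 and 4 below 0 on both arrays, and 1 and 2 with row bands. Ppargc1a, the coactivator that drives mitochondrial gene programmes, was the gene above 0, with 0.17 and 0.64 and a mean of 0.40 ± 0.34 under the planned normalization and 0.42 with row bands (adjusted p = 0.283, limma). Pprc1 and Polg, a related coactivator and the mitochondrial DNA polymerase, had means of -0.13 and -0.08. Of 16 genes of pyruvate dehydrogenase and the citric acid cycle, 2 were above 0 on both arrays (Dld and Idh3g) and 1 below (Pdhb), and none and 1 with row bands. Subunits made from mitochondrial DNA were represented by ND4 at -0.03 and -0.05 and by CYTB, cytochrome b, at -0.06 and 0.14.

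Markers of cell types that the tissue could hold were read on the same scale. Of all genes, 16.9% were above 0 and 18.1% below 0 on both arrays under the planned normalization. With row bands these shares were 20.8% and 20.8%, and limma called 0.348% of all genes. Of 12 enterocyte markers, 6 were above 0 and 4 below 0 on both arrays with a median log2 ratio of 0.00, and with row bands limma called Fabp1 (1.35 and 1.26) and Lct (1.45 and 1.37), the fatty acid binding protein and lactase, both higher in RNA labelled Gde5 gutKO. Summed enterocyte intensity was 543300 and 552700 in RNA labelled Gde5 gutKO, against 495200 and 507200 in RNA labelled WT. Such sums are set by the brightest probes. Fabp2, by a probe in row 137, made up 146600 and 148800, against 75960 and 108600. Its log2 ratios of 0.95 and 0.45 were 0.38 and 0.35 with row bands. Sis went the other way, at 100900 and 105200 against 121700 and 108000. Of 7 smooth muscle markers, 1 was below 0 on both arrays and 6 had opposite signs, with sums of 107300 and 89740 in RNA labelled Gde5 gutKO, against 94030 and 107600 in RNA labelled WT. Of 8 leukocyte markers, 4 were above 0 on both arrays, with sums of 7065 and 6472 in RNA labelled Gde5 gutKO, against 5127 and 5556 in RNA labelled WT, and with row bands limma called Ms4a1, a B cell gene, at 0.69 and 0.72 (adjusted p = 0.016). All 5 tested fat markers were below 0 on both arrays under the planned normalization and 3 of them with row bands, with sums of 36470 and 33700 in RNA labelled Gde5 gutKO, against 43730 and 41720 in RNA labelled WT, while Ucp1 was not above background. Of the hepatocyte genes, 2 were tested, with 1 above 0 and 1 below 0 on both arrays. The part of these cell types in the subunit ratios was not tested.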

How the data were processed

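Total RNA of intestine labelled Gde5 gutKO and WT was compared on 2 dual-colour Agilent arrays of 1 slide, 1 per dye orientation. Slide and dye therefore could not be fitted. The members and gene lists were chosen with earlier results of these data known. Per the file headers, the deposited files hold intensity values for the mean brightness and local background of each spot, from Agilent Feature Extraction 11.5.1.1, while the submitters' processing notes name version 9.5. The deposited log10 ratio is Cy5 over Cy3 after the software's own background and dye steps, and the deposited p-value comes from the software's error model. A deposited value table holds the same log10 ratios rounded. Outlier spots marked by the software were left out (133 and 222 gene spots), background was corrected by normexp with an offset of 50, and each array got its own loess curve, in which control spots had a weight of 0. The software was R 4.3.3 and limma 3.58.1.

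Each probe's spots were averaged and every ratio was expressed as Gde5 gutKO over WT. Testing required that a probe be well above background in 1 genotype on both arrays, which 29090 probes were, and the brightest probe stood for its gene. Means were tested against 0 by limma's moderated test on 1 residual and 3.01 prior degrees of freedom, adjusted over all genes, with calls at 0.05. The step was tested on simulated data. Normalised intensity is the channel value after loess, offset included, and cannot be compared between probes. The number of arrays limits the precision.

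The text names, in complexes I, III, IV and V, up to 3 members higher and 3 lower on both arrays by the smaller ratio and up to 2 of opposite signs. It also names all of complex II, complex IV tissue isoforms, genes not above background, members whose probes disagree, and up to 3 genes of each further list. Ndufa3, Ndufa4, Ndufs6, Ndufb10, Atp5c1, Atp5g3, Cycs, Ucp1 and the muscle genes other than Myh4, Myh8 and Tnni2 were chosen after their values were seen, as were the row limits and the 2 corrections for array position. Atp5a1, Atp5e, Atp5k, Ndufb4, Ndufb7, Uqcr11, CYTB, Prm1 and Sis also fall outside the naming rule. Coordinates and sequences are those of the array's design on mm9. Further alternatives covered outlier spots, background, normalization, filter, probe choice and each array alone.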

Additional observations from a re-analysis of the deposited data

How the results depend on the processing

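Under the planned normalization limma called no gene, and it called 22 with normexp offset 0, 38 on the scanner software's processed log ratio, 36 on the deposited value table, 4 after a surface over row and column was removed, 66 with row bands and 8 with local medians. It called no subunit gene in any of these. A member at least 1.5-fold apart on both arrays appeared with offset 0 (Cox6a2). Subunit genes above 0 on both arrays numbered 20, where 16.9% of all genes were. They numbered 27 with outlier spots kept (all genes 13.2%), 16 with offset 0 (16.1%) and 10 with median centring in place of loess (11.4%). With outlier spots kept 9 of 82 members and 218 of 19005 genes had an unadjusted p under 0.05 by limma. Subunit genes below 0 on both arrays numbered 4, where 18.1% of all genes were. With outlier spots kept they numbered 6 (all genes 26.6%), and 7 with median centring (17.1%). With the surface removed they numbered 2 (18.1%), and 8 with row bands (20.8%). The members' median log2 ratio of 0.03 was 0.136 with outlier spots kept, 0.011 with offset 0, 0.001 on the processed log ratio, 0.001 on the value table and -0.044 with median centring. For all genes it was -0.025, -0.023, -0.021, -0.022 and -0.028 in the same order. With outlier spots kept the median was 0.099 for complex I, 0.163 for III, 0.146 for IV and 0.177 for V. Complex I had 0.001 on the processed log ratio and 0.002 on the value table. With median centring complex I had -0.031, IV -0.044 and V -0.056. With row bands complex IV had 0.007. On 1 array alone the median ran between 0.049 and 0.066 for all members, between 0.034 and 0.057 for complex I, between 0.081 and 0.183 for III, between 0.025 and 0.051 for IV and between 0.031 and 0.107 for V. Of 24 members with 1 sign on both arrays, 11 had a mean of the other sign in an alternative. The mean of Ndufa11 turned to 0.012 on the processed log ratio, 0.012 on the value table and 0.043 with local medians. Cox7a2 turned to -0.011 and Ndufa1 to -0.018 with median centring, and Ndufa1 to -0.002 as the mean of its probes. Ndufv2 turned to -0.074 with row bands. With local medians Atp5l turned to -0.015 and Ndufa10 to 0.009. The others were chosen after their values were seen: Ndufb10 turned to -0.024 with row bands, and Ndufb4, Ndufb7, Uqcr11 and Atp5k, all within 0.04 of 0, turned to between -0.053 and -0.03 with median centring. The cause was not tested. Atp5j, Cox6a2 and Ndufs3 were above 0 on both arrays in all 13 settings. These settings read the same 2 arrays, and the share of all genes that did so was not counted. No paired analysis was possible because the replicate numbers join no samples beyond the 2 genotypes of each array, which the log ratios already pair. No more than 2 arrays limit the precision of every ratio.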
